A study of Homo sapiens with 3 samples.

Results

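The genes described here are DUSP5, DUSP6, NF1, SPRED1, SPRED2 and PTPN11, 6 members of the RAS-ERK signalling pathway or its brakes, taken from 10830 gene symbols that the deposited annotation names for at least 1 YBX1 peak. They were set by name, and every peak whose list of gene symbols contains one of them was kept, which gave 15 of 22874 peaks in replicate 1 and 12 of 17285 in replicate 2. YBX1, also called YB-1, contacts both DNA and RNA through its cold-shock domain. Its occupancy was mapped by ChIP-seq in HEL, an established human erythroleukaemia cell line that carries a JAK2 mutation. The libraries were 2 immunoprecipitations with an antibody against YBX1, numbered as replicates 1 and 2, and 1 input of sheared chromatin, all from cells at steady state without drug. The chromatin had been crosslinked in 1% formaldehyde for 5 min. There was no second cell line, no YBX1-depleted control and no mock immunoprecipitation among the samples analysed here, so all values describe occupancy in 1 state of 1 line.

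ERK is the last kinase of a relay in which active RAS switches on RAF, RAF phosphorylates MEK, and MEK phosphorylates ERK. The relay limits itself: ERK activity induces genes whose products remove its phosphate or block the steps above it. DUSP5 and DUSP6 encode dual-specificity phosphatases that dephosphorylate ERK in the nucleus and in the cytoplasm. NF1 encodes neurofibromin, a GTPase-activating protein that returns RAS to its inactive state, and SPRED1 brings neurofibromin to the membrane. SPRED2 belongs to the same inhibitor family. PTPN11 encodes the tyrosine phosphatase SHP2, which, unlike the others, helps receptors to activate RAS. JAK2 mutations drive chronic blood neoplasms in which cytokine receptors signal through both STAT proteins and the ERK relay.

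The replicates were sequenced to nearly the same depth, with 10010819 and 9926271 tags kept, and the input was 7.47 and 7.53 times as deep. A listed peak held at least 5 tags. Whether each replicate was a culture of its own is not stated, so agreement between them may be technical. The header of the replicate 2 list names an alignment with another replicate number; the label was followed. A peak with at least 1 bp in common with a peak of the other replicate was called shared, and overlapping peaks were joined into shared regions. Peaks naming the same gene within 1000 bp of each other are described together as a place. Fold enrichment is the authors' own value for each peak, namely ChIP tags at the summit over the local background, and all peak positions are hg19.

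All 6 genes were named for a peak in both replicates and for at least 1 shared region, but NF1 was the only one of the 6 with a shared region inside the gene. Over all genes named in either list, 66.7% had a shared region and 20.4% had one inside the gene. The genes had been chosen with these lists known, so the count of 6 is a description. In all, 9 shared regions named these genes: 3 in introns of NF1 and 6 in intergenic sequence. Of the 27 peaks, 18 were intergenic, 9 were intronic, and 0 lay in a promoter or an exon. Over all peaks, promoters held 3.28% in replicate 1 and 3.42% in replicate 2, so 27 peaks are too few to set this 0 apart from the rest of the lists. For an intergenic peak the annotation names neighbouring genes, without a distance, and nothing in the lists ties such a peak to the activity of the gene.

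DUSP5, the nuclear ERK phosphatase, was named for the strongest region of the set, an intergenic repeat of the unit TCCA on chromosome 10. The replicate 1 peak at chr10:112180694-112180879 held 62 tags with a fold enrichment of 197, and the replicate 2 peak at chr10:112180700-112180913 also held 62 tags, with a fold enrichment of 282. The summits lay 2 bp apart. In replicate 2 this was the highest fold enrichment of all 17285 peaks, and in replicate 1 it ranked 181 of 22874. Among peaks on repeats of the same unit, counted over rotations and both strands, it ranked 34 of 4579 in replicate 1 and 1 of 3728 in replicate 2. By number of tags the same peak stood lower, at rank 779 in replicate 1 and 376 in replicate 2. The fold is read at the summit and the tags over the whole peak, which was 186 bp wide in replicate 1 and 214 bp in replicate 2. A second peak in replicate 1 alone, with 8 tags and a fold enrichment of 67.4, began the place 61 bp before the main one. DUSP5 was the only gene named for these peaks.

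DUSP6, the cytoplasmic ERK phosphatase, was named for an intergenic repeat of the unit TAGA on chromosome 12, together with the neighbouring centriole gene POC1B. The peak held 16 tags in replicate 1 (chr12:89717780-89717864) and 25 tags in replicate 2 (chr12:89717772-89717878), with summits 5 bp apart. Its fold enrichment was 90.9 in replicate 1, rank 4636 in the list, and 122 in replicate 2, rank 1228. Replicate 1 had a second peak of 10 tags 104 bp away, so that the place held 26 tags over 187 bp in replicate 1 and 25 tags over 107 bp in replicate 2. A peak of 5 tags that named DUSP6 without POC1B lay 33934 bp from this place and was listed in replicate 2 alone. Where only peaks with no other gene named were counted, DUSP6 had no shared region.

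NF1 carried peaks at 4 places in its introns, and 3 of them were found in both replicates. At least as many shared regions inside the gene were found for 458 of the 2207 genes that had any, with no allowance for gene length. The first was a TCCA repeat at chr17:29473408-29473485, with 10 tags in replicate 1 and 16 in replicate 2 and the summits at the same base. Its fold enrichment was 60.4 in replicate 1 and 122 in replicate 2, a ratio of 2.02, which was the largest difference between replicates among the 9 regions. The tag counts themselves had overlapping counting intervals (exact Poisson 95%, 4.8 to 18.4 and 9.15 to 26). The second, 48888 bp further along, lay on an L1MB2 element, a LINE repeat, with 5 tags in replicate 1 and 6 in replicate 2 and fold enrichments of 35 and 47.1. Such counts lie at or next to the smallest that the lists hold.

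The third NF1 region, at chr17:29590042-29590237, was the one with the most tags inside any of the 6 genes: 24 in replicate 1 and 21 in replicate 2, with fold enrichments of 74.7 and 68.5. The annotation placed it in intron 35 of 57 and named 2 of the 3 NF1 transcripts that it listed for the earlier places. The same region was labelled as plain intron in replicate 1 and as a TAGG tandem repeat in replicate 2, where only 19 peaks of the list lay on repeats of that unit. The replicate peaks differed in extent, at 187 bp and 156 bp, and the summits lay 48 bp apart, the widest separation among the 9 regions. A further peak of 5 tags on an AluJo element followed 65 bp later in replicate 1 alone. The remaining place, in intron 11 of 57 and so before this region, held 6 tags in replicate 2 and had no peak listed in replicate 1. NF1 has partial copies elsewhere in the genome, and how the alignment treated reads that match several places was not stated.

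SPRED1, which recruits neurofibromin, was named for an intergenic TCTA repeat at chr15:38522584-38522654 with 13 tags in replicate 1 and 11 in replicate 2. Fold enrichment was 80.8 in replicate 1 and 59.5 in replicate 2, with summits 19 bp apart. The only peak inside SPRED1 lay 27985 bp from that repeat, on an L1ME4a element in an intron, and was listed in replicate 1 alone with 6 tags and a fold enrichment of 27.3. SPRED2 had the weakest shared region of the set. It lay on a HAL1-2a_MD element, another LINE repeat, at chr2:65669172-65669249, with 8 tags in replicate 1 and 5 in replicate 2. Its fold enrichments of 29.1 and 28.3 ranked 20603 of 22874 and 15355 of 17285. They were low also among peaks on the same element, at rank 731 of 774 and 526 of 576. The pair of SPRED genes thus differed in the repeat under the region and in its strength, though 13 and 11 tags against 8 and 5 have overlapping counting intervals.

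PTPN11, the gene of SHP2, was named for a broader intergenic place on chromosome 12 in which the replicates cut the signal differently. Replicate 1 had 3 peaks there, with 17 tags on an Alu monomer (FAM), 46 on a TCTA repeat and 6 on an L1MC4 element. Replicate 2 had 2, with 45 tags from chr12:112963142-112963414 and 10 tags 85 bp further on, both labelled as L1MC4. The first replicate 2 peak overlapped both of the first 2 peaks of replicate 1, and so these form 1 shared region, with peaks of 110 bp and 167 bp in replicate 1 and 273 bp in replicate 2. The highest fold enrichments were 146 in replicate 1, rank 1058, and 113 in replicate 2, rank 1429. The next shared region, on L1MC4, had fold enrichments of 56.1 and 45.4. A single-replicate peak of 5 tags lay 61038 bp beyond the place in replicate 1, on an MIR element, and another of 5 tags lay on a TCCA repeat in replicate 2. PTPN11 was the only gene named for all of these peaks.

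**Figure D1:**
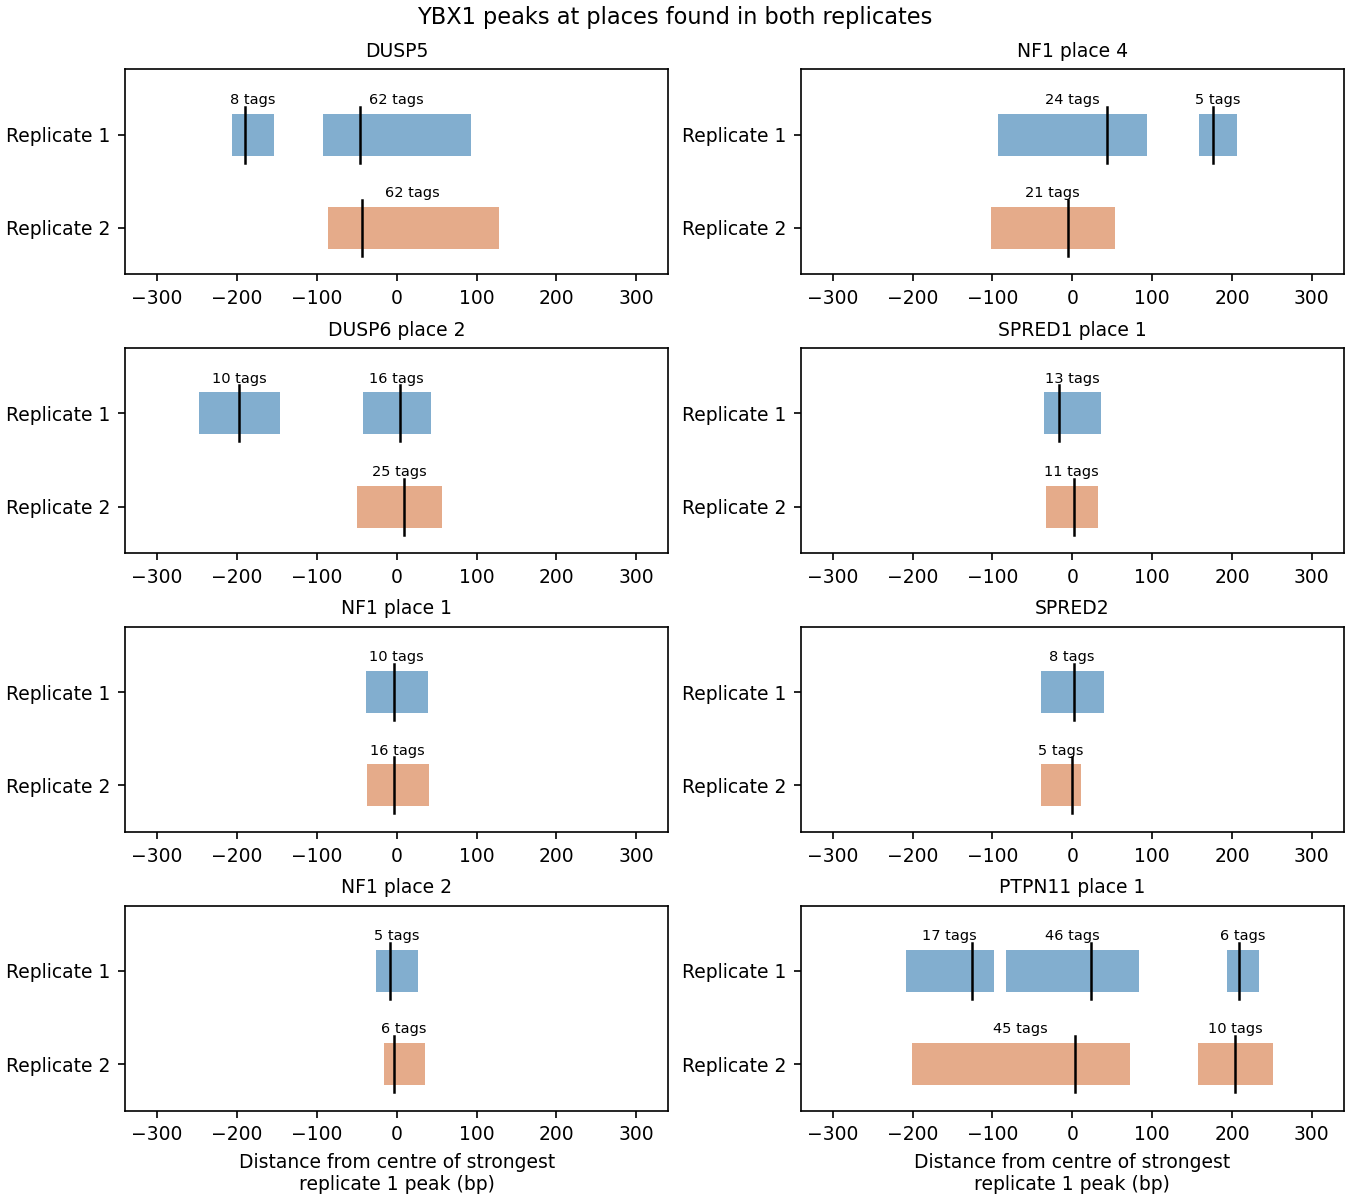
Peaks at the 8 places found in both replicates, drawn as boxes along the distance from the centre of the strongest replicate 1 peak (bp), with replicate 1 above replicate 2, a black line at each summit and the tags of each peak. Places are numbered along each gene. The DUSP5 summits lie 2 bp apart, and at PTPN11 the 45-tag peak of replicate 2 overlaps the 17-tag and 46-tag peaks of replicate 1.

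Strength differed widely among the 6 genes, with DUSP5 highest and SPRED2 lowest in both replicates. Ordered by the lower of the replicate fold enrichments, the strongest region of each gene stood at 197 for DUSP5, 113 for PTPN11, 90.9 for DUSP6, 68.5 for NF1, 59.5 for SPRED1 and 28.3 for SPRED2. Among the 10895 shared regions of the series these ranked 38 for DUSP5, 982 for PTPN11, 2236 for DUSP6, 3744 for NF1, 5174 for SPRED1 and 10046 for SPRED2. In tags per place, DUSP5 (70 in replicate 1 and 62 in replicate 2) and PTPN11 (69 and 55) had intervals that overlapped each other and lay above those of the other 4 genes in both replicates. The listed peaks of these places covered 239 bp and 214 bp at DUSP5 and 317 bp and 368 bp at PTPN11. NF1 in intron 35 (29 and 21 tags, over 234 bp and 156 bp) and DUSP6 (26 and 25) could not be ordered beyond counting error. The intervals assume independent tags and cover counting error only.

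**Figure D2:**
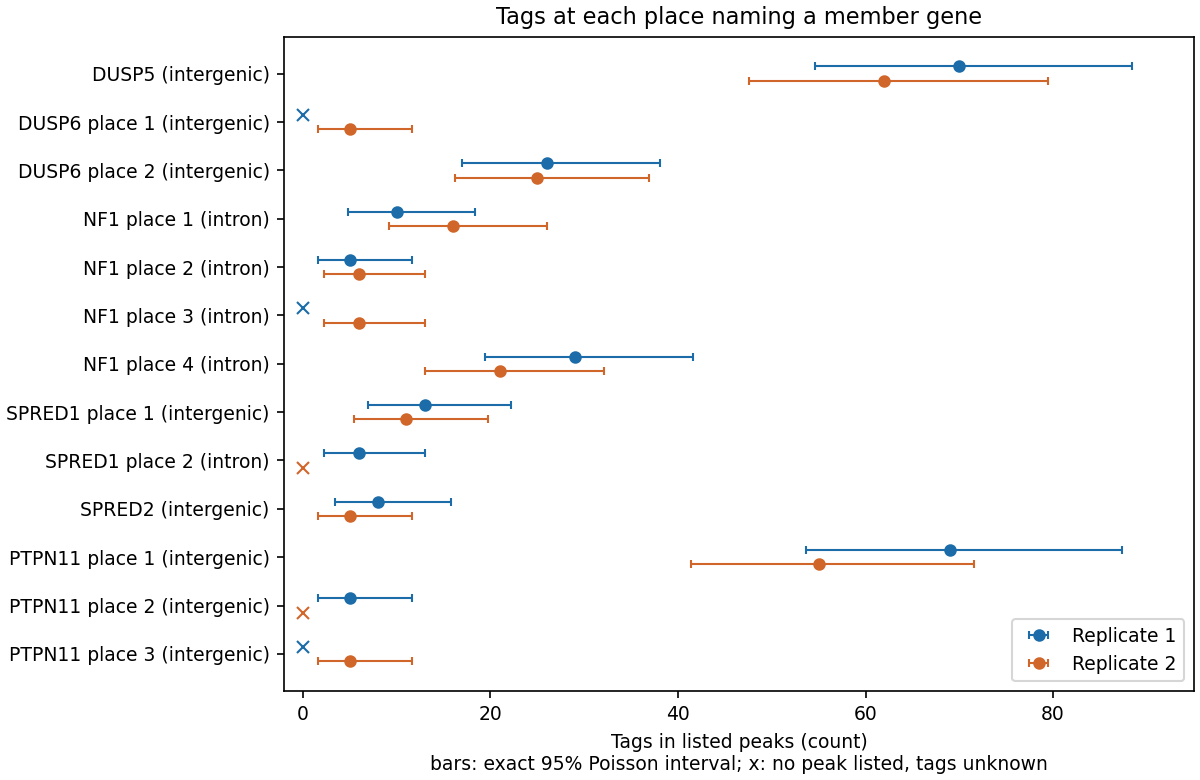
Tags in the listed peaks of each place that names DUSP5, DUSP6, NF1, SPRED1, SPRED2 or PTPN11 (x axis, count), for replicate 1 and replicate 2, with exact 95% Poisson intervals; a cross marks a replicate with no peak listed, where the number of tags is unknown. The intervals of the replicates overlap at all 8 places found in both, and the 5 places found in 1 replicate hold 5 or 6 tags.

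Of the 13 places, 8 were found in both replicates, 2 in replicate 1 alone and 3 in replicate 2 alone. The Poisson intervals of the replicates overlapped at 8 of the 8 places found in both. These places were selected by a peak in both lists, and at low counts the intervals are wide, so overlap says little about agreement. Of the peaks naming these genes, 10 of 15 in replicate 1 (66.7%, 95% Wilson interval 41.7% to 84.8%) and 9 of 12 in replicate 2 (75%, 46.8% to 91.1%) overlapped a peak of the other list, against 54.0% and 77.6% of all peaks. Several of these peaks share a place and so are not independent, and the genes were chosen with these lists known. The intervals are a description and do not test a difference. The 8 peaks found in a single replicate had 5 to 10 tags, and 3 of them lay within a place that the other replicate also held. The median distance between summits was 5 bp for the 9 regions and 14 bp for all shared regions. Fold enrichment was higher in replicate 2 for 4 of the 9 regions, namely DUSP5, DUSP6 and the first pair of NF1, and for 38.7% of all shared regions.

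**Figure D3:**
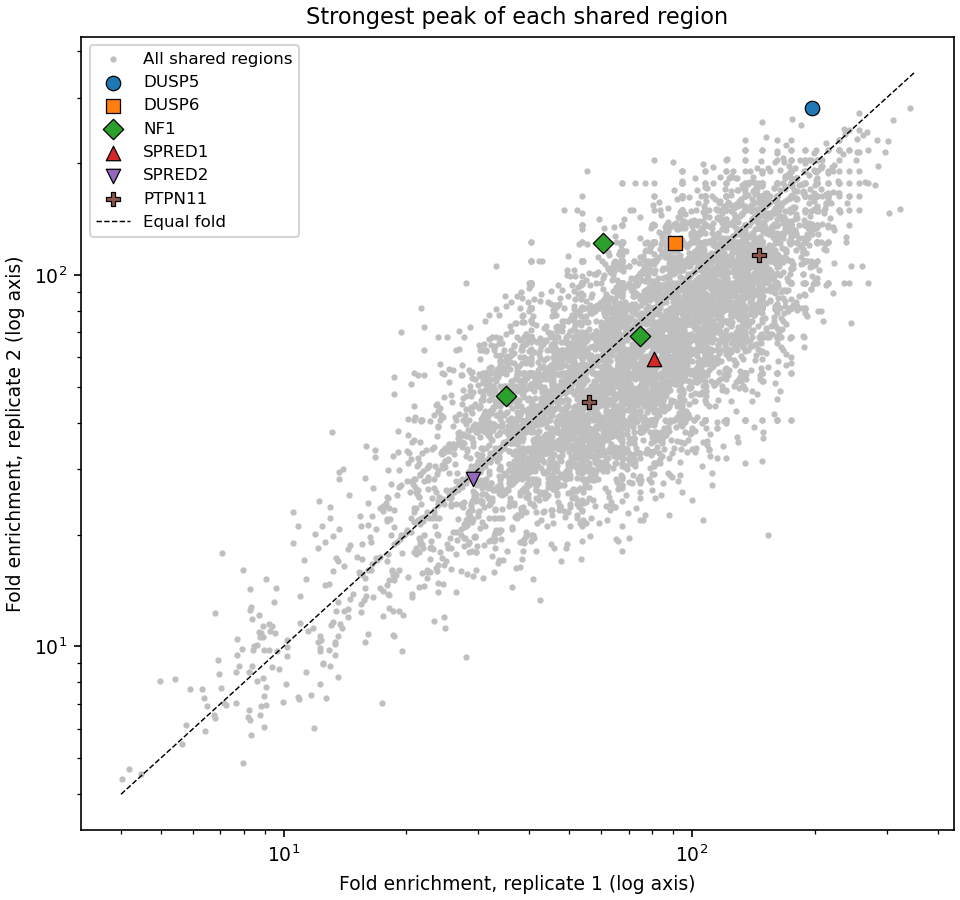
Fold enrichment of the strongest peak of each shared region in replicate 1 (x axis, log scale) and replicate 2 (y axis, log scale), for the 10895 shared regions (grey) and the 9 that name the genes described here (coloured, by gene); the dashed line marks equal values. DUSP5 has the highest replicate 2 value of the plot, at 282, and SPRED2 lies at 29.1 and 28.3.

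Most of the regions lay on tandem repeats of 4-base units. Of the 9 shared regions, 6 carried a tandem repeat label in at least 1 replicate, against 75.4% of all shared regions, and at each of these 6 the unit had 4 bases. DUSP5 and the first NF1 region had units of the TCCA kind. DUSP6, SPRED1 and PTPN11 had TAGA or TCTA, which are the same unit on opposite strands. The other 3, at SPRED2, in the second NF1 region and in the weaker PTPN11 region, were labelled as LINE elements in both replicates and had fold enrichments of 28.3 to 56.1. Peak by peak, 5 of 15 in replicate 1 and 6 of 12 in replicate 2 carried a tandem repeat label, against 51.2% and 58.9% of all peaks. Since each peak carries 1 label and the label changed between replicates at NF1 and at PTPN11, the share depends on where a peak was cut. Recovery of such repeats without YBX1 was not measured.

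The proximal promoters of these genes were looked at for the letters that YBX1 is named for, since no peak naming them was labelled as promoter. The Y-box is an inverted CCAAT element, written ATTGG when read in the direction of the gene. RefSeq promoters (GRCh38.p14) were available for DUSP6, NF1, SPRED1 and SPRED2, with 2 starts for SPRED2, and the 250 bases before each start were searched for CCAAT on both strands. CCAAT or ATTGG was present in DUSP6 and at 1 of the 2 SPRED2 starts, and in 32% of all 35116 promoters of the table. A run of at least 3 copies of the units AGAT or ATCC, in any rotation on either strand, was present in 0 of the 5 windows and in 0.0114% and 0.0427% of all promoters. These windows were not compared with the hg19 peaks by position. The windows that hold the letters, with ATTGG in capitals, are shown 5′ to 3′ on the strand of the gene, as examples from genes without a promoter peak: DUSP6 is on the minus strand at chr12:89352502-89352751, and SPRED2 on the minus strand at chr2:65366779-65367028 (GRCh38.p14).
DUSP6: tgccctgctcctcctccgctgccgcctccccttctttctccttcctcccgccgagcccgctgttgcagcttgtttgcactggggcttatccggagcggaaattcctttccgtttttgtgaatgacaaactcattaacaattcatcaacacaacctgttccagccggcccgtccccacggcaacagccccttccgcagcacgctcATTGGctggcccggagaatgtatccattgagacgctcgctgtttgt
SPRED2: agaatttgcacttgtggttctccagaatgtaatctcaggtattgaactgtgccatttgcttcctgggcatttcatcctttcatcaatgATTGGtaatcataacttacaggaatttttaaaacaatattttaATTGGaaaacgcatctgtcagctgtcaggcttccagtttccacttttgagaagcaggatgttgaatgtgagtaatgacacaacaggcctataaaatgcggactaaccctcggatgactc
The ATTGG of DUSP6 began 46 bases before the start, and those of SPRED2 began 162 and 119 bases before it. A match of letters does not show a binding site. A listed peak needed at least 5 tags, so the lack of a promoter peak naming these genes does not show that YBX1 was absent there.

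The genes next to these 6 in RefSeq gene order were looked up in the same lists. Gene order does not tell a gene beside a member from one lying within it. After NF1 it gave OMG and EVI2B, and their position relative to NF1 was not examined. The 2 protein-coding genes before and after each were taken, leaving out the read-through gene of POC1B and DUSP6. Of these, 6 of 23 were named for a peak (26.1%, 95% Wilson interval 12.5% to 46.5%) and 4 had a shared region (17.4%, 6.98% to 37.1%). Over all 20037 protein-coding genes of RefSeq, 40.4% were named and 26.9% had a shared region. An intergenic peak can name several adjacent genes, so the 23 are not independent, and these intervals too are a description. Of the 4 neighbours of SPRED2, among them the homeobox gene MEIS1, 0 were named. Beside PTPN11, RPH3A had 1 peak of 5 tags in replicate 2, and RPL6, HECTD4 and OAS1 had 0. Beside DUSP5, the cohesin gene SMC3 had 0 and the splicing regulator gene RBM20 had a shared region inside the gene with at most 11 tags. Beside DUSP6, KITLG, which encodes the ligand of the KIT receptor, had an intergenic shared region of at most 16 tags.

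The other genes of the pathway were taken from a list of 77 genes arranged by role, of which 30 were named for a peak, 20 had a shared region and 8 had one inside the gene. These are 39%, 26% and 10.4% of the list, against 40.4%, 26.9% and 8.96% of all protein-coding genes, and so near the background. Promoter peaks numbered 0. Among RAS GTPases 0 of 6 were named, and among Sprouty and SPRED inhibitors (SPRY1 to SPRY4 and SPRED3) 0 of 5. Of the other dual-specificity phosphatases 4 of 8 had a shared region, all intergenic like those of DUSP5 and DUSP6: DUSP1, DUSP2, DUSP7 and DUSP8. The strongest by fold enrichment was a TGGA repeat named for DUSP1, which inactivates MAP kinases in the nucleus, and 2 further genes. It held 107 tags in replicate 1 and 63 in replicate 2, with fold enrichments of 162 and 109. The region of DUSP2 held more tags, 273 and 183, at lower fold enrichments of 115 and 76.4. DUSP7 and DUSP8 shared their strongest regions with 11 other named genes each.

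In the kinase relay itself, MAP2K1 (MEK1) had 1 intronic peak of replicate 1 alone, while MAP2K2 and MAPK3 had 0 peaks, as had the ERK-activated kinases MKNK1 and MKNK2. RPS6KA2, a ribosomal S6 kinase that ERK activates, had 3 shared regions in introns, the strongest on a TAGA repeat at 80.9 and 60.3. The scaffold gene KSR2 held the most of the list, with 15 shared regions, 9 of them inside the gene. Its strongest lay between genes, named also for NOS1, at 162 and 109, and its strongest inside the gene stood at 80.9 and 95.2 on 6 and 7 tags. Among receptor adaptors and RAS activators only RASGRP3, an exchange factor for RAS, had a shared region (105 and 113, intergenic).

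Of the brakes, RAS GTPase-activating proteins other than NF1 had a shared region in 4 of 9 cases, against 26.9% of all protein-coding genes. No role group was tested against that share, and gene length was not allowed for. The strongest shared region lay inside the gene for RASA3 (87.4 and 88.5, on 11 and 8 tags) and RASAL2 (80.9 and 68, on 12 and 8 tags). LZTR1, an adaptor that targets RAS proteins for degradation, had 1 wide intronic TAGA region with 70 tags in replicate 1 and 48 in replicate 2. CBLB, a ubiquitin ligase, had an intronic region of 10 and 5 tags. PTPRR, a receptor phosphatase that acts on ERK, had an intronic TCTA repeat with 25 and 18 tags at fold enrichments of 91.4 and 91.5. Against the same 26.9%, 4 of 11 ERK target transcription factors had a shared region. All were intergenic, led by ELK4 (96.4 and 97.2, with 4 other genes named). By fold enrichment in the weaker replicate, DUSP5 at 197 stood above the strongest shared region of each of the 20 genes of this list that had one, of which KSR2 and DUSP1 were highest at 109. This order is a description, as DUSP5 had been chosen with its value known. By tags in the same regions, DUSP2 (273 and 183) and DUSP1 (107 and 63) stood above DUSP5 (62 and 62). LZTR1 (70 and 48) and ELK4 (68 and 50) did so in replicate 1 alone.

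**Figure D4:**
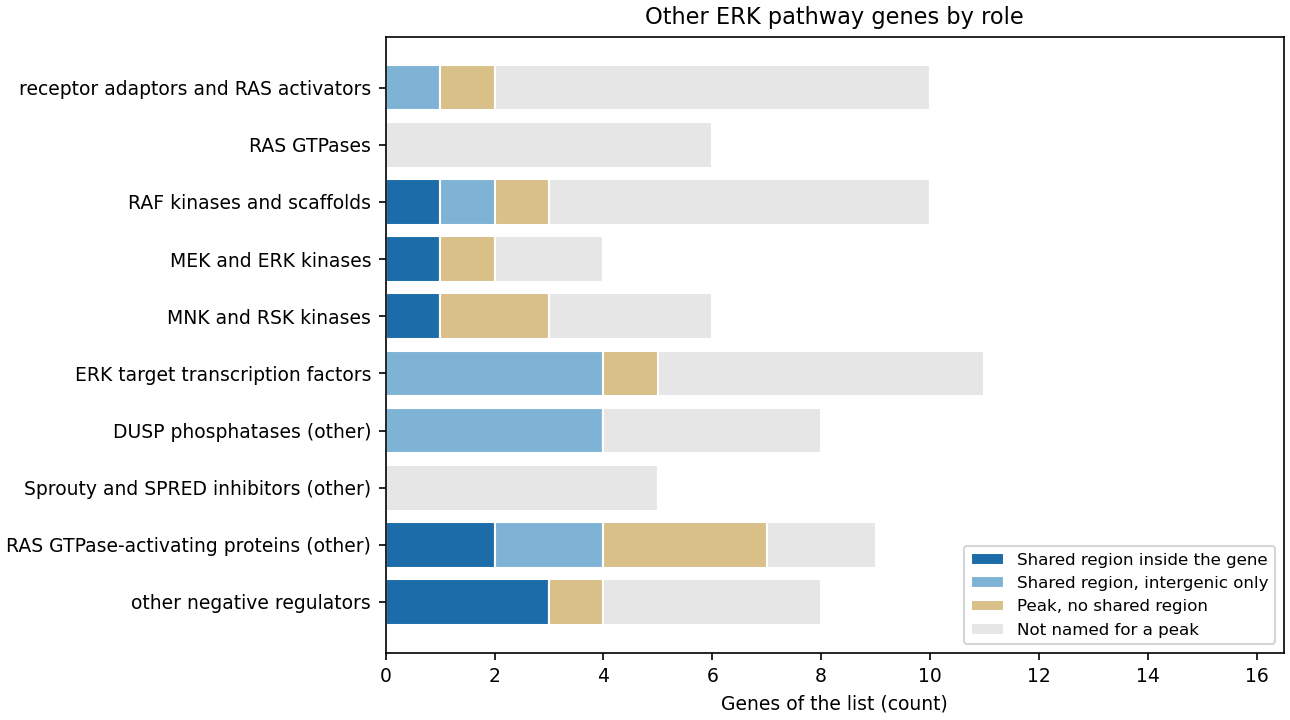
Genes of the 77-gene list by role (x axis, number of genes), split into those with a shared region inside the gene, with an intergenic shared region alone, with a peak but no shared region, and not named for a peak. The 6 RAS GTPases and the 5 Sprouty and SPRED inhibitors have no peak, and the 4 named dual-specificity phosphatases all have an intergenic shared region.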

How the data were processed

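The build is hg19, and the tools named are MACS 1.4, Bowtie2, Trimmomatic 0.36 and bcl2fastq 02.14.01.07, per the submitters' processing notes. MACS 1.4.2 called each replicate's peaks against the same input, per the file headers. It used a p-value cutoff of 1e-05 and kept 1 tag per position. The fragment size d given there was 20 bp, shorter than the 36 bp tag, so widths do not measure the extent of binding. The authors then filtered and annotated the lists; its rule was not stated. The deposited lists give a count of tags per peak, a score (the caller's −log10 p-value times 10, read from its values since the column name was lost), a fold enrichment (ratio) and a false discovery rate in percent, which was 0 throughout. Fold enrichment is the authors' ratio to a local background, the largest among the input levels in windows of 1000 bp and 10000 bp and the genome-wide level, per the file headers. Over the genome-wide level, 1 tag gives a fold enrichment of 13.5 in replicate 1 and 13.6 in replicate 2. A high fold can therefore rest on few tags, and 3 of the 27 peaks had values that are multiples of this step.

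Peaks were joined, counted and ranked with Python 3.11.15, pandas 2.3.3 and scipy 1.17.1. The joining was tested on simulated peaks, with at most 1 peak per replicate at each site. A peak overlapping several peaks of the other replicate, as at PTPN11, was not simulated. Intervals are 95% Wilson for shares and exact Poisson for tags, and cover counting error only. No test was run: there is 1 group, and the genes, the wider list and the comparisons were chosen with earlier results of these data known. The text names the 6 genes with all their peaks, genes of the wider list with a shared region inside the gene, the gene with the strongest shared region of each role, and genes named beside a member. Neighbours and single-replicate or absent pathway genes were named after their values were seen. Gene symbols were matched exactly or through older names in RefSeq (GRCh38.p14), used for names, gene order, the set of protein-coding genes and promoter sequence, with no coordinates carried over to hg19. Some genes of the wider list are not reported here by name.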

Additional observations from a re-analysis of the deposited data

How the results depend on the processing

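With an overlap of at least 50% of the shorter peak, the 9 regions, the 6 genes with a shared region, the 1 with a region inside the gene and the 20 genes of the wider list with a shared region were as reported. With peaks within 200 bp of each other joined, the regions numbered 8. Stricter lists kept NF1 as the only one of the 6 genes with a shared region inside the gene, and 5 of the 6 genes with a shared region; the gene lost was SPRED2 in each. Peaks naming the 6 genes numbered 27 in all, 16 at a caller p-value of at most 1e-10, 15 with at least 10 tags and 16 in the upper 50% of each list by fold enrichment. Their lowest and highest numbers with a replicate left out were 12 and 15. The share of shared regions on tandem repeats, 66.7% of 9, was 100% of 6 under each of these stricter choices. The share of peaks found in the other replicate, 70.4%, was 86.7% with at least 10 tags, where genes of the wider list with a shared region numbered 11, against 20. The matching values over all peaks, regions and genes were not obtained for the stricter lists. These shifts therefore cannot be called particular to the genes described here. Counting intergenic peaks only where 1 gene was named left 8 regions and 5 genes, without DUSP6. With a replicate left out no shared region can be had. No paired analysis was possible because there is only 1 group of immunoprecipitations. With a smallest peak of 5 tags, weaker occupancy is not detectable at this depth.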
